A study of Mus musculus with 14 samples.

Results

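YAP1 and TAZ are transcriptional coactivators that carry the output of the Hippo pathway, and 10 genes of that pathway were followed across 12 mouse kidney libraries. They are the coactivator genes Yap1 and Wwtr1 (which encodes TAZ), their DNA-binding partner Tead1, the inhibitors and adaptors Lats2, Amotl1, Amotl2 and Ajuba, and the target genes Cyr61, Ankrd1 and Ctgf. Members were taken by gene symbol from both deposited tables, which use the older names Ctgf and Cyr61 for Ccn2 and Ccn1, and all 10 of the 23286 genes listed were found there. RNA came from whole kidneys of 9-week-old mice, collected 5 h after either sham surgery or injury by ischemia and reperfusion (IR). Control and VE-PTPiKO mice each gave 3 sham and 3 IR libraries, so that there were 4 groups, where VE-PTPiKO names a genotype directed at VE-PTP, the endothelial phosphatase encoded by Ptprb. The alleles of either genotype, the driver of the deletion, and the strain and sex of these mice are not given in the sources used here. Nor do the labels say that each library is a separate animal, so a p-value here rests on the spread between samples that may not all be separate animals. Read counts of library pairs within a group differed by a chi-square of 11.3 to 82.7 per gene, above what read sampling alone gives. That spread does not tell which animal a library came from. A further 2 single-cell samples of the series, taken 24 h after injury, were not analysed here.

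In the Hippo pathway, MST and LATS kinases phosphorylate YAP1 and TAZ, which are then held in the cytoplasm or degraded. When the kinases are less active, or when tension in the actin cytoskeleton is high, YAP1 and TAZ enter the nucleus and bind TEAD factors at target genes such as Cyr61, Ctgf and Ankrd1. Some inhibitors of the pathway, Lats2 and Amotl2 among them, are themselves targets and take part in negative feedback. mRNA levels do not report where the YAP1 and TAZ proteins are or whether they are phosphorylated.

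The sequences shown here come from before the start sites of 4 members that were higher after IR in Control kidneys, and are printed because the TEAD core motif lies in them; for Ankrd1 only the 30 bases around each match are given. RefSeq (GRCm38.p6) gave the 250 bases before the start for 8 of the 10 members, Tead1 and Ctgf having no entry. The windows of Ankrd1, Amotl2, Lats2 and Amotl1 lie within the span of longer GENCODE models of the same genes. They are therefore upstream of the RefSeq start but not of every annotated start. The core motif GGAATG, read on either strand, occurred before a start of 6 of these 8 genes (Yap1, Wwtr1, Ankrd1, Amotl2, Ajuba and Cyr61) and not in the windows of Lats2 and Amotl1. Wwtr1 and Lats2 have a pair of listed starts each, so the 8 genes have 10 windows, of which 7 held the motif. Of all 32851 RefSeq mouse promoter windows of that length, 12.6% held it. Capitals mark the motif, which reads CATTCC where it lies on the other strand, and each sequence runs 5′ to 3′ on the gene's own strand.
Cyr61, chr3:145649986-145650235, minus strand: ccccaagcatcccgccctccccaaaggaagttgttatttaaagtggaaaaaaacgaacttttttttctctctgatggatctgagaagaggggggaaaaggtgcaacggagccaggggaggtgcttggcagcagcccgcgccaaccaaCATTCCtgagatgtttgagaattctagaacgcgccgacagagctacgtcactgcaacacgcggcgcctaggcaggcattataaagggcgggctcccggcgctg
Ajuba, chr14:54577662-54577911, minus strand: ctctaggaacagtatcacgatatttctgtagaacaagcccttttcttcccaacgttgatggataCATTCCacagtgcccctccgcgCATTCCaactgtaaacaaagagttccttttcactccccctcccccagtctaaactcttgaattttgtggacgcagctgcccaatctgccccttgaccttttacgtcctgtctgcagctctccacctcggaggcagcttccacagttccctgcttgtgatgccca
Wwtr1, chr3:57575911-57576160, minus strand: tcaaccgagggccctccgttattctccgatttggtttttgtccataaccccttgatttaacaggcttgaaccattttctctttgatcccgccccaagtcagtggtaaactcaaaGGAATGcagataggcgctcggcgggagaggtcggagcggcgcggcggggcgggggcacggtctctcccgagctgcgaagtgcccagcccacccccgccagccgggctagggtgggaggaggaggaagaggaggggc
Ankrd1, distal match, chr19:36120037-36120066, minus strand: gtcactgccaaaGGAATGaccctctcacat
Ankrd1, proximal match, chr19:36119950-36119979, minus strand: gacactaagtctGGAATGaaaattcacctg
Counting the base before the start as position -1, the match in Cyr61 lay at -103 to -98 and that in Wwtr1 at -136 to -131 (the same bases lie at -170 to -165 from its other start). Ankrd1 and Ajuba each had a pair of matches, at -210 to -205 and -123 to -118 in Ankrd1 and at -186 to -181 and -164 to -159 in Ajuba. The Yap1 window had a match at -141 to -136 and the Amotl2 window one at -65 to -60. The AP-1 motif TGANTCA (6.75% of all windows) and the CArG box, to which SRF binds (1.47% of all windows), had no match in any of the 10 windows, on either strand. A match is a string of letters and not a measured binding site.

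The reads counted on genes numbered 15427887 to 21296392 in each library. Levels are given as normalized CPM, which is reads scaled to the library total after the 12 libraries were put on one scale. In Control, Ptprb ran from 172 to 245 normalized CPM in sham and from 115 to 153 after IR. In VE-PTPiKO it ran from 116 to 171 in sham and from 73.9 to 119 after IR. The VE-PTPiKO sham libraries thus lay below the Control sham libraries, but barely (171.39 at most against 172.04 at least). In that contrast 2.37% of all genes lay wholly below. After IR the Ptprb ranges overlapped. Which part of Ptprb is deleted is not given, so its whole-gene level is a weak check of the label. Malat1, a nuclear RNA, took 1.02% of reads in Control sham replicate 2, 1.15% in VE-PTPiKO sham replicate 2 and 1.96% in VE-PTPiKO IR replicate 3, against 0.327% to 0.564% in the other 9 libraries, so results were also computed without these 3 libraries. Markers of proximal tubule, thick ascending limb, collecting duct, podocyte and endothelium were all present, as the kidney label requires. Summed leukocyte markers ran from 85.6 to 101 CPM in Control sham and from 107 to 119 CPM in Control IR, with 4 of 6 markers at 1 CPM or more and no overlap between those groups; in VE-PTPiKO they ran from 91.3 to 97.8 in sham and 88.7 to 121 in IR. Summed fibroblast and mural cell markers overlapped between sham (297 to 490 CPM) and IR (329 to 650 CPM) in Control, and likewise in VE-PTPiKO. Summed endothelial markers ran from 431 to 490 CPM in sham and 456 to 567 after IR in Control, and from 498 to 553 and 522 to 587 in VE-PTPiKO, so that the sham groups of the genotypes did not overlap. Whether leukocyte or endothelial RNA contributes to the results below was not tested. The sample codes in the labels have no stated meaning, but in Control all sham codes follow all IR codes; if they mark batches, batch and surgery cannot be told apart there. In whole tissue, fewer cells of a type and less RNA per cell cannot be told apart.

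Cyr61 and Ankrd1 had the largest responses to IR of the members, in an order that was not fixed: in Control the fit put Cyr61 higher and the authors' deposited table Ankrd1. Cyr61 is described first (mm10 chromosome 3, 145646971 to 145649985). This gene encodes CCN1, a secreted matrix protein that signals through integrins. Its level was 22.2, 41.8 and 42.4 normalized CPM in the Control sham libraries and 217, 326 and 220 in the Control IR libraries. In VE-PTPiKO it was 35.7, 25.3 and 36.7 in sham and 164, 137 and 99.9 in IR. Every IR library lay above every sham library in both genotypes, and the lowest Control IR library lay above the highest VE-PTPiKO IR library. Group means were 35.5 ± 11.5, 254 ± 62.0, 32.5 ± 6.33 and 134 ± 32.2 (SD, n = 3) in the same order. The log2 difference between IR and sham was 2.88 ± 0.24 (SE) in Control, a 7.35-fold rise with a 95% interval from 5.09-fold to 10.6-fold (limma adjusted p = 4.54e-05). In VE-PTPiKO the log2 difference was 2.03 ± 0.22, a 4.08-fold rise with an interval from 2.90-fold to 5.73-fold (limma adjusted p = 0.00189). The Control call held in all 15 distinct alternative settings and subsets of libraries tried, and the VE-PTPiKO call in all 16.

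Ankrd1 encodes a stress-responsive ankyrin repeat protein best known from muscle, and it is a widely used readout of YAP1 and TAZ activity (chromosome 19, 36111965 to 36119844). It was scarce in sham kidneys, at 0.821, 1.57 and 2.15 normalized CPM in Control and 2.37, 1.00 and 1.16 in VE-PTPiKO. After IR it reached 9.12, 15.04 and 7.44 in Control and 11.6, 5.75 and 4.90 in VE-PTPiKO. The IR and sham libraries did not overlap in either genotype, while the IR libraries of both genotypes overlapped each other. These levels rested on 13 to 51 reads per sham library and 80 to 301 reads per IR library. The rise was 6.92-fold in Control (log2 difference 2.79 ± 0.36, limma adjusted p = 0.000565) and 4.74-fold in VE-PTPiKO (2.25 ± 0.41, limma adjusted p = 0.0237). The Control call held in all 15 distinct alternatives. The VE-PTPiKO call was lost when sham replicate 2, sham replicate 3, IR replicate 1 or IR replicate 2 was left out, with limma adjusted p from 0.0779 to 0.130. Summed skeletal muscle markers stayed at or below 1.98 CPM and heart muscle markers at or below 3.05 CPM in every library, and heart muscle markers were no higher after IR (0.761 to 1.10 CPM) than in sham (0.982 to 3.05 CPM) in Control.

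Ctgf encodes CCN2, a matrix protein related to CCN1 that is linked to fibrosis, and it passed the test in neither genotype (chromosome 10, 24595442 to 24598682). It stood at 212, 251 and 292 normalized CPM in Control sham and at 278, 377 and 263 in Control IR. In VE-PTPiKO its level was 233, 302 and 330 in sham and 293, 268 and 353 in IR. Sham and IR libraries overlapped in both genotypes. The log2 difference was 0.28 ± 0.16 in Control, with a 95% interval from -0.07 to 0.63 (limma adjusted p = 0.326), and 0.09 in VE-PTPiKO, with an interval from -0.30 to 0.48 (limma adjusted p = 0.868). Both intervals end below the lower bounds for Cyr61 in the same genotype. Per kb of exon, Ctgf was 6.73, 4.24 and 4.86 times the level of Cyr61 in the Control sham libraries and 0.906, 0.816 and 0.842 times in the Control IR libraries. The same ratio of levels per kb was 4.60, 8.43 and 6.34 in VE-PTPiKO kidneys after sham and 1.26, 1.38 and 2.50 after IR. Cyr61 thus stood above Ctgf in the 3 Control IR libraries and below it in the other 9. An antisense transcript, Gm15270, covers 23.2% of the Ctgf exons in GENCODE, and whether the counting used strand is not given, so the Ctgf level may include reads from it.

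**Figure D1:**
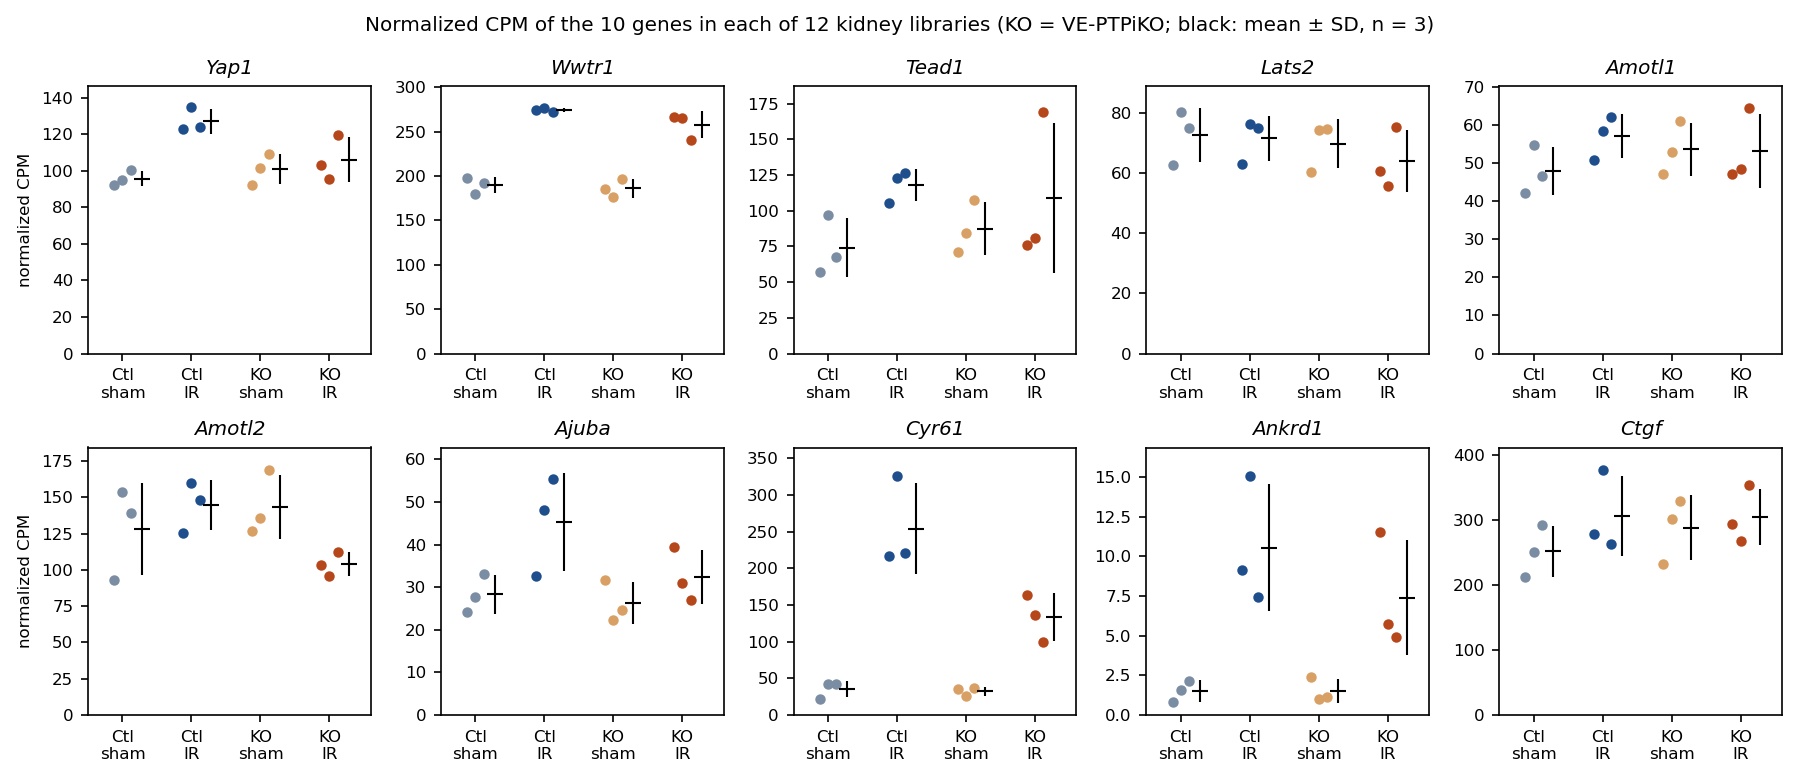
Normalized CPM (linear axes starting at 0) of the 10 genes in each library, by group; points are libraries and black marks are the mean ± SD (n = 3), with Ctl for Control and KO for VE-PTPiKO. Cyr61 lies between 217 and 326 in Control IR and between 99.9 and 164 in VE-PTPiKO IR, against at most 42.4 in sham, whereas the groups of Ctgf and Lats2 overlap.

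Both coactivator genes were higher after IR in Control kidneys. Yap1 (chromosome 9, 7932001 to 8004596) stood at 92.1, 94.9 and 100 normalized CPM in Control sham and at 123, 135 and 124 in Control IR. In VE-PTPiKO it was 92.6, 101 and 109 in sham and 103, 95.7 and 120 in IR. The IR libraries lay above the sham libraries in Control and overlapped them in VE-PTPiKO. The log2 difference was 0.41 ± 0.10 in Control, a 1.33-fold rise (limma adjusted p = 0.0215), and 0.07 in VE-PTPiKO, with a 95% interval from -0.24 to 0.38 (limma adjusted p = 0.873). The Control call was lost without sham replicate 1, IR replicate 1, IR replicate 2 or IR replicate 3, with limma adjusted p from 0.0530 to 0.147, and its log2 difference stayed between 0.37 and 0.45 over all alternatives. An antisense transcript, Gm20416, covers 1.25% of the Yap1 exons.

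Wwtr1 (chromosome 3, 57455644 to 57575910) varied little between replicates. It stood at 198, 180 and 192 normalized CPM in Control sham and at 274, 277 and 272 in Control IR. In VE-PTPiKO the levels were 185, 176 and 197 in sham and 267, 266 and 240 in IR. All IR libraries were above all sham libraries in both genotypes. The Control difference was 0.53 ± 0.10 on the log2 scale, a 1.45-fold rise that was called in all 15 distinct alternatives (limma adjusted p = 0.00442). In VE-PTPiKO the difference was of similar size, 0.47 ± 0.12, with a 95% interval from 0.19 to 0.75, but it missed the threshold (limma adjusted p = 0.0969). It passed there with DESeq2 (adjusted p = 0.0131), with limma in 1 model of all 12 libraries (adjusted p = 0.00908), without the 3 libraries richest in Malat1 (adjusted p = 0.0474) and without VE-PTPiKO IR replicate 3 (adjusted p = 0.020). Wwtr1 exceeded Yap1 per kb in every library, by 3.36 to 5.38 times.

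Tead1 encodes one of the TEAD factors through which YAP1 and TAZ reach DNA (chromosome 7, 112679320 to 112906805). Its level was 57.4, 97.2 and 67.3 normalized CPM in Control sham and 105, 123 and 126 in Control IR. In VE-PTPiKO it was 71.1, 84.1 and 107 in sham and 75.7, 81.1 and 169 in IR. Control IR libraries lay above Control sham libraries, and the VE-PTPiKO groups overlapped. The highest Control sham library (replicate 2) and the highest VE-PTPiKO IR library (replicate 3) were among the 3 richest in Malat1. The difference was 0.71 ± 0.17 on the log2 scale in Control (1.64-fold, limma adjusted p = 0.0228) and 0.23 ± 0.29 in VE-PTPiKO (limma adjusted p = 0.784). Without the 3 libraries richest in Malat1, which in Control means without sham replicate 2, these values were 0.92 ± 0.12 in Control (limma adjusted p = 0.00122) and -0.15 ± 0.19 in VE-PTPiKO (limma adjusted p = 0.661). The Control call was lost in 1 model of all 12 libraries (limma adjusted p = 0.142) and when sham replicate 1, sham replicate 3, IR replicate 2 or IR replicate 3 was left out (limma adjusted p from 0.0628 to 0.104).

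Among the inhibitors and adaptors, 1 of 4 passed the test, and only in Control, where 11.5% of all genes passed in either direction. Ajuba encodes a LIM domain protein that binds LATS kinases and restrains them (chromosome 14, 54567469 to 54577661). It stood at 24.1, 27.7 and 33.2 normalized CPM in Control sham and at 32.7, 48.0 and 55.3 in Control IR, so that the lowest IR library fell within the sham range. In VE-PTPiKO its level was 31.7, 22.2 and 24.6 in sham and 39.4, 30.9 and 26.9 in IR, again overlapping. The Control difference of 0.66 ± 0.19 (1.58-fold) lay just inside the threshold (limma adjusted p = 0.0485), and the VE-PTPiKO difference was 0.31 (limma adjusted p = 0.528). The Control call for Ajuba is the least secure of those reported here: it held in 6 of 15 distinct alternatives, and leaving out a library other than IR replicate 1 gave limma adjusted p from 0.0572 to 0.191.

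Lats2 encodes a kinase that phosphorylates YAP1 and TAZ (chromosome 14, 57689662 to 57746123). It stood at 62.8, 80.5 and 75.0 normalized CPM in Control sham and at 63.1, 76.5 and 75.2 in Control IR. In VE-PTPiKO it was 60.5, 74.4 and 74.8 in sham and 60.8, 55.8 and 75.6 in IR. The groups overlapped throughout, with log2 differences of -0.02 in Control (95% interval from -0.30 to 0.26) and -0.13 in VE-PTPiKO (from -0.49 to 0.23). GENCODE places another protein-coding model, Gm49361, on the same strand over 42.4% of the Lats2 exons, so this level is uncertain.

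Amotl1 and Amotl2 encode angiomotin-like proteins, which bind YAP1 and TAZ at cell junctions and keep them out of the nucleus. Amotl1 (chromosome 9, 14541967 to 14615000) ranged in Control from 42.1 to 54.7 normalized CPM in sham and from 50.7 to 62.0 after IR, and in VE-PTPiKO from 47.0 to 60.9 in sham and from 47.0 to 64.4 after IR. Its log2 differences were 0.26 in Control (limma adjusted p = 0.255) and -0.01 in VE-PTPiKO (limma adjusted p = 0.981). Amotl2 (chromosome 9, 102717804 to 102733417) stood in Control at 92.7, 153 and 139 normalized CPM in sham and at 126, 160 and 148 after IR. In VE-PTPiKO it stood at 126, 136 and 168 in sham and at 103, 95.7 and 112 after IR. It was the one member whose VE-PTPiKO IR libraries all lay below the VE-PTPiKO sham libraries, while in Control the sham and IR libraries overlapped. The difference was -0.46 ± 0.15 on the log2 scale in VE-PTPiKO, with a 95% interval from -0.79 to -0.13 (limma adjusted p = 0.169), and 0.20 ± 0.18 in Control (limma adjusted p = 0.555). In the authors' deposited table the VE-PTPiKO difference for Amotl2 was -0.44 with an adjusted p of 0.0170. Among the fits run here, edgeR and DESeq2 included, it passed only in limma without VE-PTPiKO IR replicate 3 (-0.51, limma adjusted p = 0.0453).

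Taken by count, 6 of the 10 genes were higher after IR in Control kidneys by limma at an adjusted p under 0.05 (Cyr61, Ankrd1, Tead1, Ajuba, Wwtr1 and Yap1) and 0 were lower. Of the 16257 genes tested there, 7.48% were higher and 4.02% lower, or 11.5% in either direction. In VE-PTPiKO kidneys 2 were higher (Cyr61 and Ankrd1) and 0 lower, where 1.92% of 16401 genes were higher and 0.793% lower, or 2.71% in either direction. The median log2 difference of the 10 genes was 0.47 in Control and 0.16 in VE-PTPiKO, against -0.01 over all genes tested in either genotype. The 10 genes were chosen with earlier results of these data known, so their counts and medians beside those of all genes are descriptive only. Groups that did not overlap, with IR above sham, were found for 5 genes in Control (15.8% of all genes) and for 3 in VE-PTPiKO (10.6% of all genes), and IR lay wholly below sham for 0 in Control (13.7% of all genes) and for Amotl2 alone in VE-PTPiKO (10.1% of all genes). With one library left out in turn, 3 to 5 genes were called in Control and 1 to 4 in VE-PTPiKO. Over all genes, the same fits called 862 to 2010 in Control and 126 to 1925 in VE-PTPiKO, so the overall number of calls moved as well. The authors' deposited tables listed the same 6 genes as higher in Control at an adjusted p under 0.05, a threshold that 12.5% of the genes with a value passed in that direction; 0 members were listed as lower, against 8.6% of genes. For VE-PTPiKO the deposited table listed Cyr61, Ankrd1 and Wwtr1 as higher (6.42% of genes) and Amotl2 as lower (4.88% of genes). Its log2 differences were smaller than the fitted ones for Ankrd1, at 2.32 in Control and 1.57 in VE-PTPiKO, and for Cyr61, at 2.29 and 1.82.

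**Figure D2:**
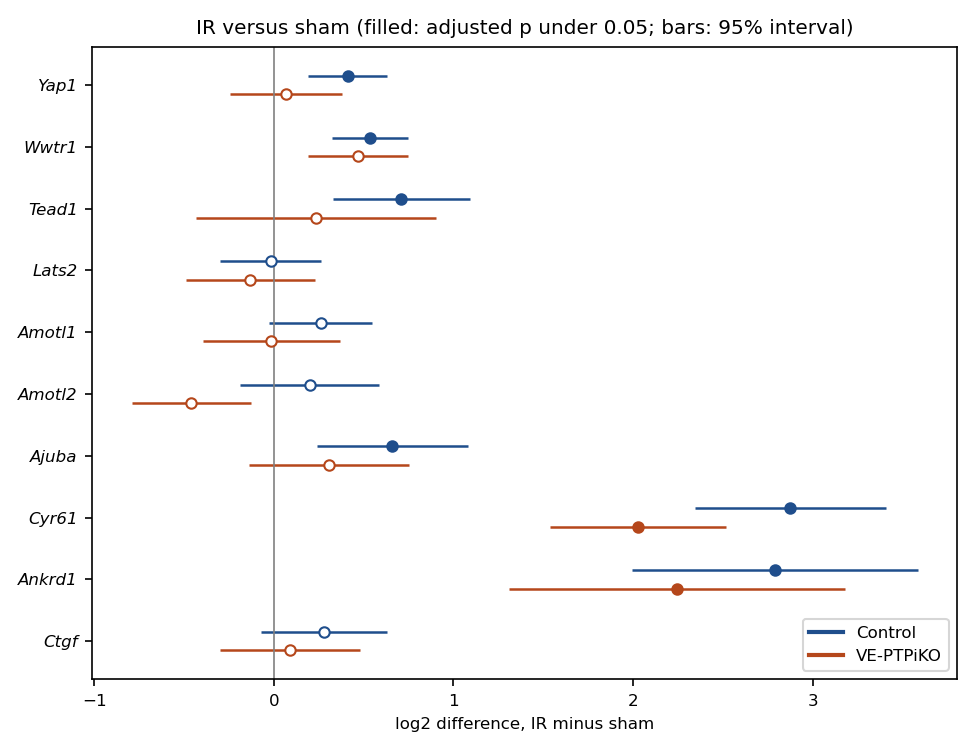
Log2 difference between IR and sham for each of the 10 genes in Control and in VE-PTPiKO; points are limma estimates, bars their 95% intervals, and filled points have an adjusted p under 0.05. Cyr61 and Ankrd1 lie above 2 in both genotypes, and the other 8 lie between -0.46 and 0.71.

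Whether the response to IR differed between genotypes was tested as an interaction over all 12 libraries. All 10 estimates were below 0, meaning a smaller rise or a larger decrease in VE-PTPiKO, while 52.2% of all 16346 genes were below 0. Most of the related lists described below leaned the same way, so the lean is not particular to the 10 genes. Below 0 were 85% of the SRF and actin list, 73.3% of the other conserved targets and 65% of the Hippo regulators. In the CCN family 3 of 3 genes were below 0, but only 43.75% of the partners and inhibitors were. No member passed (limma adjusted p = 0.999 for each), nor did any of the genes tested: limma called 0% of them, 433 genes (2.65%) had an unadjusted p under 0.05, and edgeR and DESeq2 also called 0. The estimates were -0.85 ± 0.37 for Cyr61, with a 95% interval from -1.65 to -0.05, and -0.66 ± 0.25 for Amotl2, with an interval from -1.19 to -0.12. For Tead1 the estimate was -0.47 ± 0.39, for Ankrd1 -0.54 ± 0.61, for Ajuba -0.35 ± 0.30 and for Yap1 -0.34 ± 0.15. With a library left out in turn, every member's estimate stayed below 0, but sizes moved: that of Cyr61 ran from -1.02 without VE-PTPiKO sham replicate 2 to -0.54 without Control sham replicate 1. That of Ankrd1 ran from -0.91 without VE-PTPiKO IR replicate 1 to -0.17 without Control sham replicate 1. The smallest with all libraries was that of Wwtr1, -0.06 ± 0.13, with an interval from -0.35 to 0.22. The call made for Yap1, Wwtr1, Tead1 and Ajuba in Control alone is therefore not shown to be a difference between genotypes. Without the 3 libraries richest in Malat1 the Tead1 estimate moved to -1.08 ± 0.24 (limma adjusted p = 0.132) and the Amotl2 estimate to -0.90 ± 0.26 (limma adjusted p = 0.192).

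The sham kidneys of both genotypes were compared next. Log2 differences between VE-PTPiKO and Control sham ran from -0.12 for Ajuba to 0.26 for Tead1, 5 of 10 were below 0, and the libraries overlapped for every member; over all genes, VE-PTPiKO lay wholly above Control for 2.51% and wholly below for 2.37%. Limma called 0 members and 0% of 16346 genes; 267 genes (1.63%) had an unadjusted p under 0.05, edgeR called 0 and DESeq2 called 1 gene. For Cyr61 the difference was -0.08, with a 95% interval from -0.65 to 0.48, and for Ankrd1 it was -0.003, with an interval from -0.94 to 0.93.

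After IR, 9 of the 10 genes had a lower estimate in VE-PTPiKO than in Control, where 53.5% of all genes did. In the related lists described below, 3 of 3 CCN genes did. Elsewhere the share ran from 62.5% of the partners and inhibitors to 70% of the SRF and actin list. Limma called 0 members and 0% of genes; 709 genes (4.34%) had an unadjusted p under 0.05, edgeR called 0 and DESeq2 called 1 gene. The VE-PTPiKO IR libraries lay entirely below the Control IR libraries for Yap1, Wwtr1, Amotl2 and Cyr61, as they did for 5.19% of all genes, and entirely above for 0 members, against 3.98% of all genes. Cyr61 had the largest difference, -0.93 ± 0.26 on the log2 scale with a 95% interval from -1.498 to -0.364, or 1.91-fold lower. The difference was -0.47 ± 0.18 for Amotl2, -0.47 ± 0.21 for Ajuba, -0.26 ± 0.11 for Yap1 and -0.55 ± 0.43 for Ankrd1. For Ctgf it was 0.004, with an interval from -0.38 to 0.39. Each of these had a limma adjusted p of 1.00. This contrast and the interaction share the IR libraries, so they are not separate evidence.

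**Figure D3:**
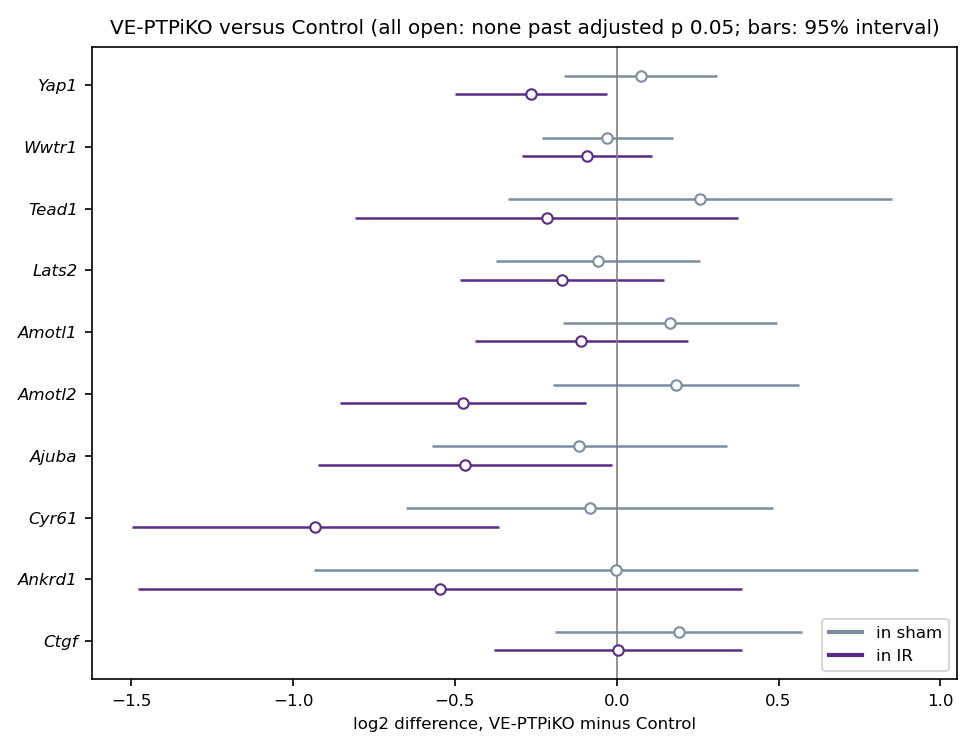
Log2 difference between VE-PTPiKO and Control for each of the 10 genes, in sham and in IR kidneys; points are limma estimates and bars their 95% intervals, and no adjusted p was under 0.05. In sham the estimates lie between -0.12 and 0.26, and after IR the estimate for Cyr61 is -0.93.

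Across genes, levels are comparable only per length, as normalized CPM per kb of exon. The length merges all GENCODE exons of a gene, and may include exons that were not expressed or not counted. For Lats2, Amotl1, Amotl2 and Ankrd1 the GENCODE model reaches beyond the deposited one. The order of close neighbours, and the ratios per kb given above, are uncertain to that extent. Averaged over the 12 libraries, Ctgf stood at 101, Cyr61 at 56.5, Wwtr1 at 47.5, Amotl2 at 20.7, Yap1 at 11.6, Lats2 at 9.98, Ajuba at 9.07, Tead1 at 7.15, Amotl1 at 5.26 and Ankrd1 at 1.82. The order was the same in all 12 libraries for Wwtr1 above Amotl2, Amotl2 above Yap1, Tead1 above Amotl1 and Amotl1 above Ankrd1. Neighbours that changed places were Ctgf and Cyr61 (Ctgf higher in 9 of 12 libraries), Cyr61 and Wwtr1 (Cyr61 higher in 5), Yap1 and Lats2 (Yap1 higher in 11), Lats2 and Ajuba (Lats2 higher in 7), and Ajuba and Tead1 (Ajuba higher in 9). Cyr61 ran over the widest span of levels among the more abundant members, from 11.0 to 161 per kb.

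**Figure D4:**
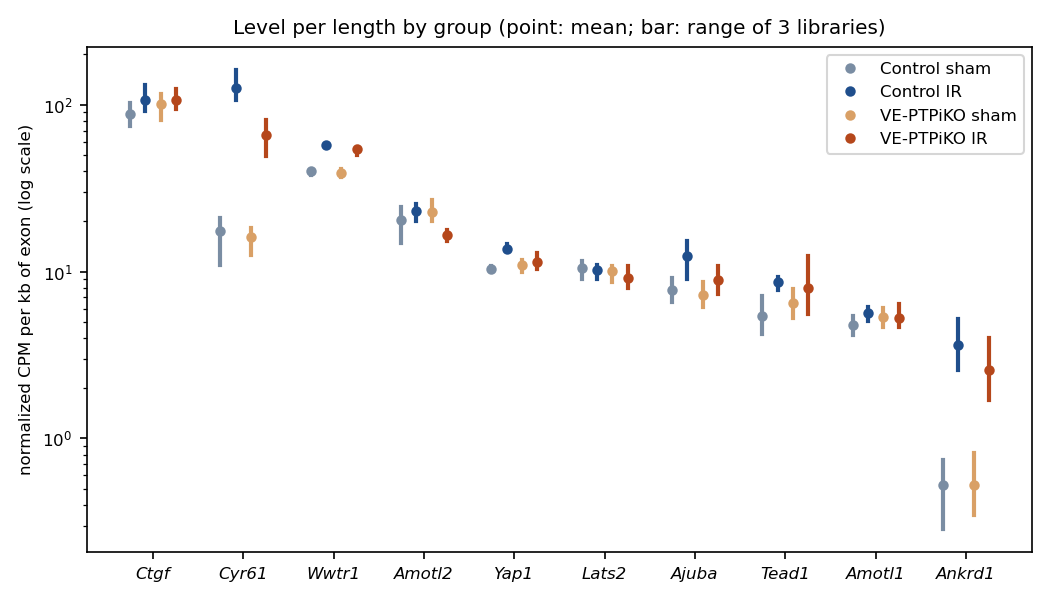
Normalized CPM per kb of exon (log axis) of the 10 genes in order of their mean over 12 libraries; points are group means and bars the range of 3 libraries. Cyr61 ranges from 11.0 to 161 and Ankrd1 from 0.285 to 5.21, while Wwtr1 stays between 36.8 and 57.9.

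The rest of the pathway was read from 5 lists that leave out the 10 genes and were likewise chosen with earlier results known. Of 20 Hippo kinases, adaptors and upstream regulators, 3 were higher and 0 lower in Control, and 1 was higher and 0 lower in VE-PTPiKO, with medians of 0.05 and -0.12 on the log2 scale. Of all genes tested, 7.48% were higher and 4.02% lower in Control, and 1.92% higher and 0.793% lower in VE-PTPiKO, so counts this small in a list say little. Crb3, a polarity protein upstream of the kinases, rose in both genotypes (log2 differences 0.75 ± 0.13 and 0.76 ± 0.16), and Rassf1 (0.71 ± 0.15), a partner of the MST kinases, and the kinase gene Map4k4 (0.38 ± 0.11, limma adjusted p = 0.0498) rose in Control. The kinase gene Lats1 was at 0.06 in Control and -0.19 in VE-PTPiKO and passed in neither. Among 16 partners and inhibitors, 3 rose and 0 fell in each genotype (7.48% and 1.92% of all genes were higher in Control and VE-PTPiKO), with medians of 0.09 and -0.06. Among them were Sfn, a 14-3-3 protein (2.57 ± 0.23 in Control and 2.66 ± 0.45 in VE-PTPiKO), and the angiomotin gene Amot (0.89 ± 0.14 and 0.58 ± 0.12). Mean Amot levels were 61.0 ± 6.79 and 113 ± 17.8 normalized CPM in Control sham and IR (SD, n = 3), so the family member Amot rose where Amotl1 and Amotl2 did not pass. Of the other TEAD genes, Tead4 had differences of 0.61 and 0.69 in Control and VE-PTPiKO and passed in neither.

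Of 15 other conserved YAP1 and TAZ targets with enough signal to test (16 were listed), 4 rose and 0 fell in Control, and 3 rose and 0 fell in VE-PTPiKO, where 7.48% and 1.92% of all genes were higher, with medians of 0.35 and 0.05. F3, which encodes tissue factor, went from 20.0 ± 0.542 to 126 ± 27.7 normalized CPM in Control (SD, n = 3), a log2 difference of 2.63 ± 0.15. In VE-PTPiKO it went from 21.0 ± 0.242 to 89.8 ± 23.1, a difference of 2.06 ± 0.19. Gadd45a, a growth arrest and DNA damage gene, rose by 1.88 ± 0.18 and 1.32 ± 0.23, Fjx1 by 1.19 ± 0.19 and 1.27 ± 0.25, and Myof, a membrane repair protein, by 1.10 ± 0.18 in Control. Of the same list, Axl (0.04) and Igfbp3 (-0.09) did not pass in Control. The 15 targets ranged from -0.11 to 2.63 in Control. In the CCN family, Wisp1 (1.95 ± 0.24) and Nov (1.25 ± 0.28) rose in Control out of 3 tested of 4, and 0 of 3 passed in VE-PTPiKO, against the same shares of all genes. Both were scarce, with Wisp1 at 1.68 ± 0.250 and 6.68 ± 1.46 normalized CPM and Nov at 0.816 ± 0.0594 and 2.01 ± 0.249 in Control sham and IR (SD, n = 3).

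A list of 20 SRF and actin cytoskeleton genes held targets, Srf itself and its cofactor genes Mkl1 and Mkl2. Of these 20, 9 rose (Srf and Mkl1 among them) and 0 fell in Control. In VE-PTPiKO 1 rose and 0 fell, and the medians were 0.47 in Control and 0.28 in VE-PTPiKO. Over all genes 7.48% were higher in Control and 1.92% in VE-PTPiKO, with 1870 and 445 calls in either direction, so the smaller count in VE-PTPiKO goes with fewer calls overall. Vcl, which encodes the adhesion protein vinculin, rose by 1.31 ± 0.12 in Control, from 71.0 ± 9.50 to 174 ± 9.91 normalized CPM (SD, n = 3). The tropomyosin gene Tpm4 rose by 1.06 ± 0.16 in Control and 0.91 ± 0.15 in VE-PTPiKO, and Fhl2, a LIM domain cofactor, by 0.91 ± 0.16 in Control. Actg1 also passed in Control (1.03 ± 0.22), at 3.76 ± 0.640 normalized CPM in sham (SD, n = 3); how reads shared between near-identical actin genes were counted is not given, so its level is uncertain. The smooth muscle gene Acta2 was at 0.02 in Control and did not pass. Limma called 0 genes of any of the 5 lists in the interaction or in either contrast between genotypes, where it called 0 of all genes.

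**Figure D5:**
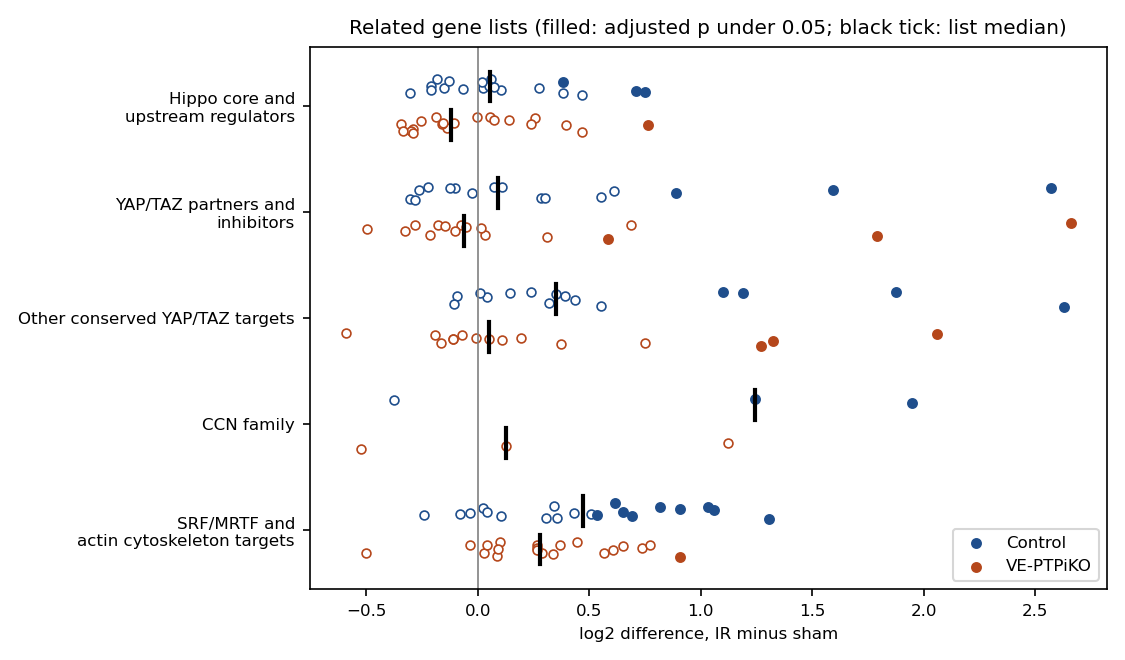
Log2 difference between IR and sham for each tested gene of the 5 related lists, in Control (upper row of each pair) and in VE-PTPiKO (lower row); filled points have a limma adjusted p under 0.05 and black ticks are list medians. The SRF and actin list has 9 filled points in Control and 1 in VE-PTPiKO, and the median of the other conserved targets is 0.35 in Control and 0.05 in VE-PTPiKO.

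For each gene called in Control, the genes with the most similar profile were sought among the 10613 genes whose mean reached 5 CPM, by the root mean square difference of centred log2(CPM + 1) over the 12 libraries. Among the nearest to Cyr61 were Tubb6 (0.292), a tubulin gene, and Klf6 (0.335), a zinc finger transcription factor gene, where Cyr61 itself varied by 1.31 around its mean. The log2 difference of Klf6 after IR was 2.30 in Control and 2.03 in VE-PTPiKO. Ankrd1 was nearest to Plet1 (0.271), Akr1b8 (0.281) and Tubb6 (0.297). Adding 1 to the CPM shrinks the profile of a gene as scarce as Ankrd1 in sham. In Control the log2 differences of these neighbours were 1.80, 2.05 and 2.38, against 2.79 for Ankrd1 in the fit. Tead1 was nearest to Myh9 (0.107), Notch2 (0.109) and Pprc1 (0.136), and Ajuba to Anks4b (0.144), Anxa5 (0.147) and Dram1 (0.159). Yap1 was nearest to Pak2 (0.0487), Ap2b1 (0.0603) and E2f4 (0.0704), and Wwtr1 to Wdr1 (0.0724), Lrrc59 (0.0739) and Inpp5f (0.0747). The distances grow with how much a gene varied, so those of Yap1 and Cyr61 are not on an equal footing.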

How the data were processed

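The authors used FastQC, STAR, HTSeq and DESeq2 on mm10, per the submitters' processing notes, without versions. They deposited 1 table per genotype over 6 libraries. The deposited library columns hold signal: read counts of each gene over a size factor of the library; 100.0% of values gave whole reads within a tolerance of 0.02. The deposited log2 fold changes, p-values and Wald statistics (a score, not used) are the authors' own. IR was tested against sham within each table by limma (3.58.1, R 4.3.3) on log2(value + 1) with a mean-variance trend, keeping genes whose mean reached 1, with Benjamini-Hochberg adjustment over all genes; this scale understates changes of scarce genes. The interaction and genotype contrasts used recovered reads of all 12 libraries, put on one scale by median-of-ratios factors from 14828 genes. Normalized CPM uses those factors, markers and profiles use plain CPM, and exon lengths come from GENCODE vM21. Each table has 23493 lines, 182 identifiers being repeated. The test was tested on simulated data. Alternatives were TMM, other filters (none, 10) and pseudocounts (0.5, 5), edgeR (4.0.16), DESeq2 (1.42.0), a replicate block, 1 model of all libraries, omission of 3 Malat1-rich libraries, and omission of each library. Named genes were the 10 members, up to 4 called genes per list with the largest change in Control, and the 3 nearest profiles of each called member; other list genes were named after their values were seen. Some genes chosen in this way are not reported here. The 10 members and the lists were chosen with earlier results of these data known.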

Additional observations from a re-analysis of the deposited data

How the results depend on the processing

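No log2 difference past the threshold changed its sign: of 960 recomputed values of the 10 genes, 932 kept their side of the threshold, 23 lost a call and 5 gained one. Of these, 10 Control values without the Malat1-rich libraries repeat those without Control sham replicate 2. With each library left out in turn, limma called from 3 to 5 of the 10 genes for IR against sham in Control (6 with all libraries) and from 1 to 4 in VE-PTPiKO (2 with all libraries). The low count of 3 came without replicate 1 of Control sham or without replicate 2 or 3 of Control IR, and the high count of 4 without VE-PTPiKO IR replicate 3. In the other settings 4 to 6 of the 10 were called in Control and 2 to 3 in VE-PTPiKO, and 0 in the interaction and both genotype contrasts under every setting run. Over all genes, the Control count of 1870 fell to 862 without Control IR replicate 2. The VE-PTPiKO count of 445 was 1007 with DESeq2, 1019 in 1 model of all 12 libraries, 853 without the 3 Malat1-rich libraries, and 126 to 1925 with a library left out, being highest without VE-PTPiKO IR replicate 3; the cause was not tested. Deviations of same-numbered samples from their group means had correlations from -0.06 to 0.05 in Control and from -0.20 to 0.30 in VE-PTPiKO. With 3 libraries per group these values cannot settle whether same-numbered samples were paired or handled together, and the labels do not say. With the replicate block the test called 6 of the 10 genes and 1805 of all genes in Control, 2 and 604 in VE-PTPiKO, and 0 in the other contrasts. With 3 libraries per group, Ankrd1 in sham rests on few reads and its differences between genotypes have intervals that span both signs.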
